A study of Mus musculus with 161 samples.

Results

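The full-length CTCF transgene line was compared without and with induction of the transgene, over 16 chromosome-conformation capture carbon copy (5C) libraries of the 91 5C libraries in the series. The members were every 5C library of line EN133.10 treated for 4 days, 2 with auxin and no doxycycline (dox) and 14 with auxin and dox. The cells are male mouse embryonic stem cells (E14Tg2a) whose endogenous CTCF carries an auxin-inducible degron (AID) and GFP, together with randomly integrated Tir1, so that auxin (500 µM, indole-3-acetic acid) degrades it in both groups. Dox (1 µg/ml) switches on a full-length, FLAG-tagged CTCF cDNA fused to mRuby2, driven by an rtTA-responsive promoter at the Tigre locus. The groups therefore differ in dox itself as well as in the induced protein. All 16 libraries came from 1 clone, and no library of this line without auxin was analysed here. The labels give replicate numbers but no separate clones, so p-values measure the spread between these libraries. Numbers 3 and 4 each occur on 2 libraries with dox, here called 3a, 3b, 4a and 4b in order of library number.

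CTCF is a zinc-finger protein that binds an asymmetric DNA motif and stalls cohesin, the ring complex that extrudes chromatin loops. Topologically associating domains (TADs) are stretches of chromosome whose loci contact each other more than loci beyond a boundary, and CTCF sites at their ends usually point towards each other, an arrangement called convergent. The region studied surrounds Xist, the RNA that silences an X chromosome, and its antisense repressor Tsix. 5C counts ligation products between restriction fragments with a forward or a reverse primer, here on chromosome X of the mm9 build between 98831148 and 103425147. The 6 CTCF-dependent boundaries listed by the study cut the region into 7 segments. They had been chosen in CTCF-AID cells without a transgene, so that none of the 16 libraries entered the choice. The paper left out boundaries that were still found in those cells after 4 days of auxin. Lower insulation at these bins without dox was thus favoured in advance by the choice.

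Peaks of FLAG–CTCF, mapped in the same line after 2 days of auxin and dox, numbered 78 in the region. To show where and in which direction the protein can bind at the positions on which the contacts below turn, 30 bases of the mm9 reference are given for 11 peaks, 5′ to 3′ on the strand of the motif. Capitals mark 12 letters that match CCNNNAGNNGGC, a pattern taken from the CTCF core motif. Each peak lies in a boundary bin, in a bin with several changed contacts or in a fragment of a changed primer pair. Further peaks that meet this rule are not shown. They have a plus and a minus match in the Nhsl2 intron of segment 2, a minus match in segment 5 and a plus match at boundary 6.
Boundary 1, Nhsl2 intron, plus strand, chrX:99170401-99170430: tcagatacaCCAGAAGAGGGCactggatcc
Boundary 2, intergenic, plus strand, chrX:99414652-99414681: ctgtatagtCCAGCAGAGGGCactggatgt
Boundary 2, intergenic, plus strand, chrX:99415163-99415192: tcagacacaCCAGAAGAGGGCgtcaaatct
Boundary 3, 4930519F16Rik intron, plus strand, chrX:100455384-100455413: accaggtgaCCACTAGATGGCggtatagta
Segment 4, Chic1 intron, minus strand, chrX:100567167-100567196: gcctgtaggCCAGAAGAGGGCaccagatct
Segment 4, Tsix intron, minus strand, chrX:100639277-100639306: gcaaaaagtCCACAAGATGGCgatagagac
Segment 4, Tsix intron, minus strand, chrX:100649576-100649605: tcagatataCCAGAAGAGGGCaccagatcc
Boundary 4, Tsix exon, plus strand, chrX:100677064-100677093: tgaaagaaaCCACTAGAGGGCaggtcacat
Boundary 4, Tsix exon, plus strand, chrX:100679562-100679591: ctgaataaaCCAGCAGGTGGCagcatgaat
Segment 5, intergenic beside Rlim, minus strand, chrX:101185955-101185984: acctgcatgCCAGAAGAGGGCaccagatcc
Boundary 6, Cox7b intron, plus strand, chrX:103214286-103214315: tcaggcacaCCAGCAGGGGGCatcagatcc

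These letters, searched on both strands, occur in 39 of the 78 peaks (50.0%) and in 2.28% of all 200-bp windows of the region. Boundaries 2 and 3 and the boundary 4 bin hold matches on the plus strand, whereas the sites shown in Chic1, in the Tsix intron and beside Rlim are on the minus strand. No peak lies within 30 kb of the centre of the boundary 5 bin. A match is a description of the letters and not a measured binding direction.

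Between 5262254 and 23096139 ligation products were counted in the 13 libraries whose count table is whole, with 9498128 in replicate 1 without dox. The count table of replicate 2 without dox stops before its last forward primers and those of 2 libraries with dox stop earlier still. Counts were therefore tested over the forward primers whole in both libraries without dox, in 2 against 12 libraries, whereas corrected contacts were available for all 16. No pair of these libraries shared more than 4.39% of equal counts. Libraries 3b and 4b with dox stand apart from the others at long distance, and 7 libraries, including both without dox and 5 with dox, list 1 forward and 1 reverse primer fewer than the rest, here called the shorter primer list. Values without 3b and 4b, and within the shorter list, are given beside the results they touch. Counting intervals were not used, since reads amplified by PCR are not independent molecules.

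The excess of contacts inside domains over contacts across boundaries was smaller when the transgene was not induced. Domain contrast is the log2 ratio of the mean contact of 20-kb bin pairs inside 1 segment (4309 pairs) to that of pairs across a boundary (3073 pairs) at the same distance, 40 to 1000 kb. It was 0.30 and 0.30 without dox. With dox, the lowest of 14 libraries had 0.42, the median was 0.48 and the highest 0.57. Both libraries without dox lay below every library with dox, by 0.18 on average (0.30 ± 0.0056 against 0.48 ± 0.038, mean ± SD, n = 2 and 14), with p = 0.0167 and adjusted p = 0.0333 (two-sided exact permutation test, adjusted over 4 measures), and 0.0167 is the smallest p that 2 against 14 libraries allow. In plain ratios the preference for the own segment was 0.88 times as large without dox as with it. Raw counts, over the forward primers whole in both libraries without dox, gave a larger difference (-0.27). It missed the threshold after adjustment (p = 0.0220, adjusted p = 0.0659, 2 against 12, exact permutation test), where 0.0220 is the smallest p that 2 against 12 allow.

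Mean insulation over the 6 boundaries moved in the same direction. Insulation is the log2 mean contact in a 100-kb square that spans a bin, relative to the other bins and with its sign turned, so that a higher score means a sharper boundary. It was 0.37 and 0.38 without dox and 0.54 to 0.71 with dox (mean 0.61 ± 0.040 SD), a difference of -0.23 with p = 0.0167 and adjusted p = 0.0333 (exact permutation test). Within the shorter primer list, domain contrast with dox was 0.42 to 0.49 and insulation 0.54 to 0.62, and both libraries without dox still lay below all 5 (p = 0.0952 for each, the smallest that 2 against 5 allow in an exact permutation test). Neither measure reached 0 without dox, where a contact inside a segment still exceeded one across a boundary.

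**Figure D1:**
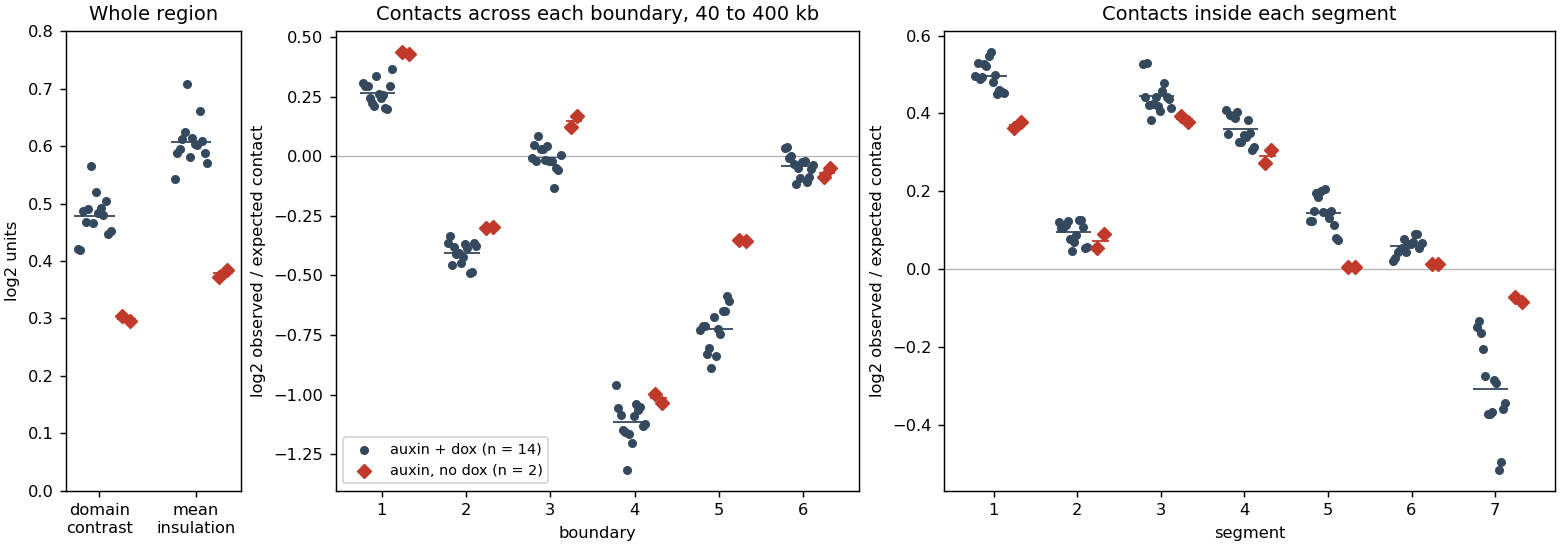
Each point is 1 library, round for auxin and dox (n = 14) and diamond for auxin without dox (n = 2), with short lines at the means. The left panel gives domain contrast and mean insulation, the middle panel contacts across each of 6 boundaries and the right panel contacts inside each of 7 segments (log2 of observed over expected). The diamonds lie below all circles for domain contrast (0.30 against 0.42 or more) and above all circles at boundaries 1, 2, 3 and 5.

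Contacts across individual boundaries were then compared as log2 of observed over expected, expected being the mean of that library at the same distance, for bin pairs 40 to 400 kb apart that cross no other boundary. Across boundary 5, which lies beside the E3 ubiquitin ligase gene Rlim and separates the segment of Ftx and Rlim from the one that holds Atrx, the value was -0.35 and -0.36 without dox. With dox it ran from -0.89 over a median of -0.72 to -0.59. Contact across it was thus 1.29 times as high without dox (difference 0.37, adjusted p = 0.0250 over 6 boundaries, exact permutation test), the largest ratio of the 6. Across boundary 1, inside Nhsl2, the values were 0.44 and 0.43 without dox and 0.20 to 0.36 with dox, a 1.12-fold difference (adjusted p = 0.0250, exact permutation test). Across boundary 3 they were 0.12 and 0.17 against -0.14 to 0.086, a 1.11-fold difference, and across boundary 2 they were -0.30 and -0.30 against -0.49 to -0.33, a 1.08-fold difference (adjusted p = 0.0250 for each, exact permutation test). At these 4 boundaries every library without dox was above every library with dox, also within the shorter primer list.

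Boundaries 4 and 6 did not pass. Boundary 4 lies at Xist and Tsix and had the lowest contact of all, -1.0 and -1.03 without dox against -1.32 to -0.96 with dox (adjusted p = 0.140, exact permutation test). It passed only when replicate 1 with dox, the library with the highest value, was left out (adjusted p = 0.0229). Boundary 6, at Cox7b (a respiratory chain subunit) and Atp7a (a copper transporter), had -0.089 and -0.049 without dox, inside the range with dox of -0.12 to 0.038 (adjusted p = 0.450, exact permutation test), but below all 5 libraries with dox of the shorter primer list (-0.031 to 0.038). For boundary 3, raw counts kept the direction but not the call (0.047, adjusted p = 0.527).

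Inside the segments the change went the other way in 5 of 7. Segment 5, between boundaries 4 and 5 with Ftx and Rlim, had 0.0048 and 0.0065 without dox and 0.075 to 0.21 with dox, 0.91 times as much contact (adjusted p = 0.0292 over 7 segments, exact permutation test). Segment 1, before boundary 1, had 0.36 and 0.38 against 0.45 to 0.56, 0.92 times as much (adjusted p = 0.0292). In the 1980-kb segment 6 the difference was small but without overlap, 0.013 and 0.014 against 0.020 to 0.090 (0.97 times, adjusted p = 0.0292). Segments 3 and 4 were lower by 0.059 and 0.069, each with 1 library without dox inside the range with dox (adjusted p = 0.0389). Both lost the call without 3b and 4b or without the 2 libraries corrected as forward against reverse primers (adjusted p = 0.0513). With the median in place of the mean of each bin both lost it too (adjusted p = 0.194 and 0.163, exact permutation test). With 40-kb bins segments 3 and 6 lost the call (adjusted p = 0.0583 for each, exact permutation test). Segment 2 did not differ detectably (0.054 and 0.089 against 0.046 to 0.13, adjusted p = 0.333), but both libraries without dox lay below all 5 with dox of the shorter primer list (0.10 to 0.12, p = 0.0952, exact permutation test). Segment 7, at the end of the region around Pgk1, a glycolytic enzyme gene, rose instead, from -0.52 to -0.13 with dox to -0.073 and -0.084 without (1.17-fold, adjusted p = 0.0292). Within the shorter primer list its values with dox were -0.27 to -0.13. The rise was smaller there, 0.11 against 0.23 over all libraries (p = 0.0952, exact permutation test). On raw counts, segments 1, 4, 5 and 6 kept their direction but missed the threshold (adjusted p = 0.765, 0.264, 0.0659 and 0.0659), and segment 3 turned to 0.039 (adjusted p = 0.560). Before adjustment segments 5 and 6 had p = 0.0220 on raw counts, the smallest possible in this exact permutation test. Raw-count values of segments 2 and 7 are not reported here.

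The decline of contact with distance did not pass the test over all 16 libraries, and it passed with median bins or without 2 libraries with dox. The exponent of the decline from 40 to 1000 kb was -0.92 and -0.92 without dox and -1.01 to -0.89 with dox (mean -0.95 ± 0.031 SD, adjusted p = 0.167, exact permutation test). With the median in place of the mean of each bin it was 0.045 shallower without dox and passed (adjusted p = 0.0222, exact permutation test). Of 7 distance bands none passed. Between 40 and 100 kb, log2 contact relative to the library mean was 3.11 and 3.10 without dox against 3.06 to 3.24 with dox, and between 100 and 200 kb it was 2.01 and 2.03 against 1.93 to 2.15. Between 200 and 400 kb the values were 1.19 and 1.2 against 1.06 to 1.24, and between 400 and 800 kb 0.21 and 0.22 against 0.15 to 0.25. Beyond that the values without dox were in the upper part of the range with dox, -0.99 and -1.0 against -1.24 to -0.89 at 800 to 1600 kb, -2.22 and -2.23 against -2.62 to -1.80 at 1600 to 3200 kb, and -3.03 and -3.03 against -3.59 to -2.42 beyond 3200 kb. The smallest adjusted p over the bands was 0.496 (exact permutation test).

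Libraries 3b and 4b with dox had the most long-range contact of all 16 libraries, with -2.42 and -2.72 beyond 3200 kb. Without them the remaining libraries with dox separated from those without dox in 4 bands. Contact was then lower without dox by 0.075 at 100 to 200 kb and higher by 0.099 at 800 to 1600 kb, by 0.21 at 1600 to 3200 kb and by 0.36 beyond 3200 kb (adjusted p = 0.0385 for each, exact permutation test), and the exponent was 0.040 shallower (adjusted p = 0.0293). Within the shorter primer list the same order was seen, with the 100 to 200 kb and 200 to 400 kb bands lower and the 3 bands from 800 kb higher without dox than in all 5 libraries with dox (p = 0.0952 for each, the smallest possible in this exact permutation test). Leaving out these libraries was decided after their values had been seen.

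**Figure D2:**
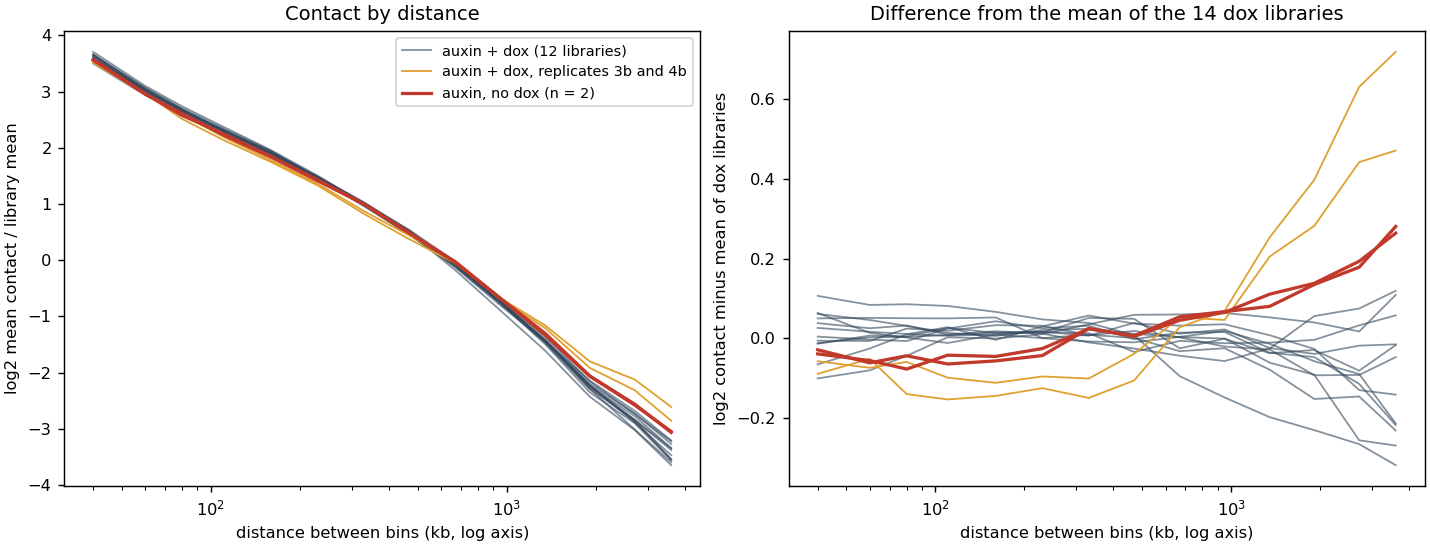
The left panel plots log2 mean contact relative to the library mean against distance between bins (kb, log axis), 1 line per library, and the right panel the same minus the mean of the 14 libraries with dox. The 2 libraries without dox overlap the others up to about 800 kb and lie between replicates 3b and 4b and the other 12 libraries with dox at the longest distances, where the band beyond 3200 kb had -3.03 for both.

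Of 17120 bin pairs 40 kb or more apart and above the minimum contact, 37 were called, 11 higher without dox (0.0643% of those tested) and 26 lower (0.152%), by limma on log2 scaled contact at an adjusted p under 0.05. Pairs for which both libraries without dox lay above all 14 with dox made up 3.54%, and those below 1.65%. Up to 1000 kb, the pairs across a boundary included 307 above and 61 below among 3073, and pairs inside a segment 76 above and 138 below among 4309. The median log2 difference was 0.21 across boundaries, where 70.5% of pairs were higher without dox, and -0.014 inside segments, where 47.7% were. Among called pairs up to 1000 kb, 13 of 14 inside a segment were lower, whereas those across a boundary split evenly, with 8 higher and 8 lower. At any distance, all 9 called pairs that spanned boundary 5 were higher, 1 of them at 3900 kb, a pair that could be called only as a rise.

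Of the 37 called pairs, 12 shared a single bin, at 101171148 to 101191148, which holds the start of Rlim and the FLAG peak with the minus-strand letters shown. With the 20-kb bin 160 kb further on, beyond boundary 5, its scaled contact was 3.44 and 3.69 without dox and 1.19 to 2.20 with dox (log2 difference 0.96 ± 0.16 SE, adjusted p = 0.0288). With the bin 140 kb on it was 3.69 and 4.56 against 1.62 to 2.92 (0.94 ± 0.18 SE, adjusted p = 0.0426). Towards its own segment the order was turned, and with the bin 60 kb before it contact was 4.71 and 4.92 against 6.16 to 10.4 (-0.86 ± 0.14 SE, adjusted p = 0.0183). It also had less contact with 2 bins of Tsix across boundary 4, from 2.17 to 3.45 with dox to 1.51 and 1.32 without at 520 kb (-0.85 ± 0.13 SE, adjusted p = 0.0142). In all, 6 of its 12 called pairs were higher and 6 lower without dox, and the higher ones all crossed boundary 5.

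The call with the lowest p joined boundary 3 to the Tsix bin at 100631148 to 100651148, 180 kb away, whose sites are on opposite strands (plus at the boundary and minus in Tsix). Scaled contact was 6.27 and 6.27 without dox and 10.2 to 14.1 with dox, so that contact fell by 0.93 on the log2 scale (SE 0.094, adjusted p = 0.000277). This was the only named pair above a scaled contact of 5. The other pairs with the largest falls lay at the far end of the region. Pairs between segments 6 and 7 had 0.20 and 0.26 against 0.51 to 1.53 (-1.87 ± 0.37 SE, adjusted p = 0.0445, 680 kb), 0.99 and 0.68 against 1.34 to 3.05 (-1.21 ± 0.24 SE, adjusted p = 0.0426), and 0.37 and 0.39 against 0.75 to 1.18 (-1.17 ± 0.18 SE, adjusted p = 0.0175, 900 kb). One pair inside segment 6, 480 kb apart, had 0.38 and 0.77 against 0.97 to 1.82 (-1.23 ± 0.24 SE, adjusted p = 0.0426). All 6 called pairs that spanned boundary 6 were lower without dox, the reverse of boundary 5.

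Among rises, the largest joined segments 1 and 6 at 3900 kb, with 0.92 and 0.87 without dox against 0 to 0.35 with dox (3.90 ± 0.68 SE, adjusted p = 0.0320). It has no neighbours among the called pairs. Its mean with dox, 0.034, was under the minimum of 0.1 and under the pseudocount of 0.05. It thus passed the filter only through the libraries without dox, so that any call of it had to be a rise. The remaining named rises all crossed boundary 5, at 380 kb with 1.89 and 1.41 against 0.47 to 0.99 (1.14 ± 0.22 SE, adjusted p = 0.0426) and at 300 kb with 1.91 and 1.91 against 0.71 to 1.11 (0.95 ± 0.16 SE, adjusted p = 0.0224). The number of called pairs was unstable. Without replicate 1 or 2 without dox it was 2 and 5, without 3b with dox 70, without 12 it was 24, and without any 1 of replicates 2, 3a, 4a, 5, 6, 8, 9, 10, 11 and 4b it was 13 to 18. Without 3b and 4b together 104 pairs were called, within the shorter primer list 1, with contacts taken as observed over expected 5, all of them lower, and with 40-kb bins 2.88% of 4616 (71 higher and 62 lower).

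**Figure D3:**
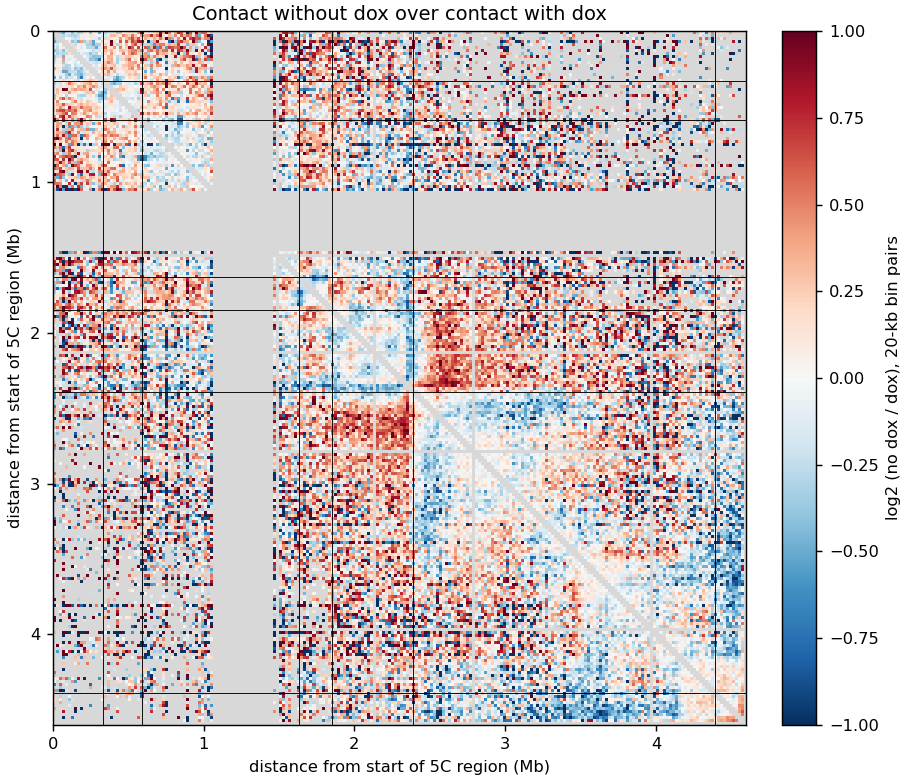
Log2 of mean contact without dox (n = 2) over mean contact with dox (n = 14) for each pair of 20-kb bins, with axes in Mb from the start of the region, boundaries as black lines and pairs not tested in grey (including a stretch without primers). Red (higher without dox) fills the block across boundary 5, and blue lines the Rlim bin inside segment 5. All 9 called pairs that span boundary 5 were higher, including a pair at 3900 kb that lies outside this block.

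Along the insulation profile, 58 of 193 bins were called by limma, 30 with a higher score without dox (15.5%) and 28 with a lower score (14.5%). At or within 60 kb of a boundary, 18 of 42 bins had a lower and 6 a higher score, and further away 10 had a lower and 24 a higher score. Without either library without dox the number called was 37 and 31 respectively, and with raw counts 33 (11 higher and 22 lower).

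Of the 5 largest losses of score, 4 formed a run at and beyond boundary 5. At the boundary 5 bin the score was 0.33 and 0.38 without dox and 0.63 to 0.79 with dox (-0.35 ± 0.039 SE, adjusted p = 6.62e-07). In the next bin it was 0.38 and 0.40 against 0.73 to 0.89 (-0.41 ± 0.034 SE, adjusted p = 2.71e-08), and in the 2 bins after that it fell by 0.40 and 0.40 (adjusted p = 6.31e-07 and 9.54e-06). The bins 60 and 80 kb before boundary 5 gained score, 0.68 and 0.68 against 0.29 to 0.45 (0.33 ± 0.037 SE) and 0.62 and 0.63 against 0.25 to 0.41 (0.31 ± 0.035 SE, adjusted p = 6.62e-07 for both). Overlapping 100-kb squares make neighbouring bins share contacts.

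The other boundary bins differed in how much score they lost. Boundary 3 went from 0.30 to 0.44 with dox to 0.073 and 0.061 without (-0.31 ± 0.034 SE, adjusted p = 6.31e-07), a call that raw counts did not keep (-0.20, adjusted p = 0.108). Boundary 6 had 0.44 and 0.43 against 0.60 to 0.91 (-0.26 ± 0.057 SE, adjusted p = 0.00124), and boundary 2 had 0.49 and 0.44 against 0.55 to 0.85 (-0.19 ± 0.058 SE, adjusted p = 0.0130). At boundary 1 the listed bin did not pass (-0.27 and -0.27 against -0.27 to -0.094, adjusted p = 0.0879), but the bin 20 kb before it went from 0.068 to 0.53 with dox to -0.043 and -0.043 without (-0.34 ± 0.085 SE, adjusted p = 0.00366). Boundary 4 kept the highest score of the 6, 1.17 and 1.27 without dox against 1.15 to 1.68 (adjusted p = 0.186). In the bin 40 kb before it, where the minus-strand sites of the Tsix intron lie, the score fell from 1.38 to 1.66 with dox to 1.07 and 1.15 (-0.39 ± 0.073 SE, adjusted p = 0.000345). The largest gains beside those before boundary 5 were in segment 4 around the start of Cdx4, a homeobox transcription factor gene (0.28 ± 0.055 and 0.29 ± 0.045 SE, adjusted p = 0.000509 and 6.43e-05), and 100 kb beyond boundary 4 (0.26 ± 0.058 SE, adjusted p = 0.00170).

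**Figure D4:**
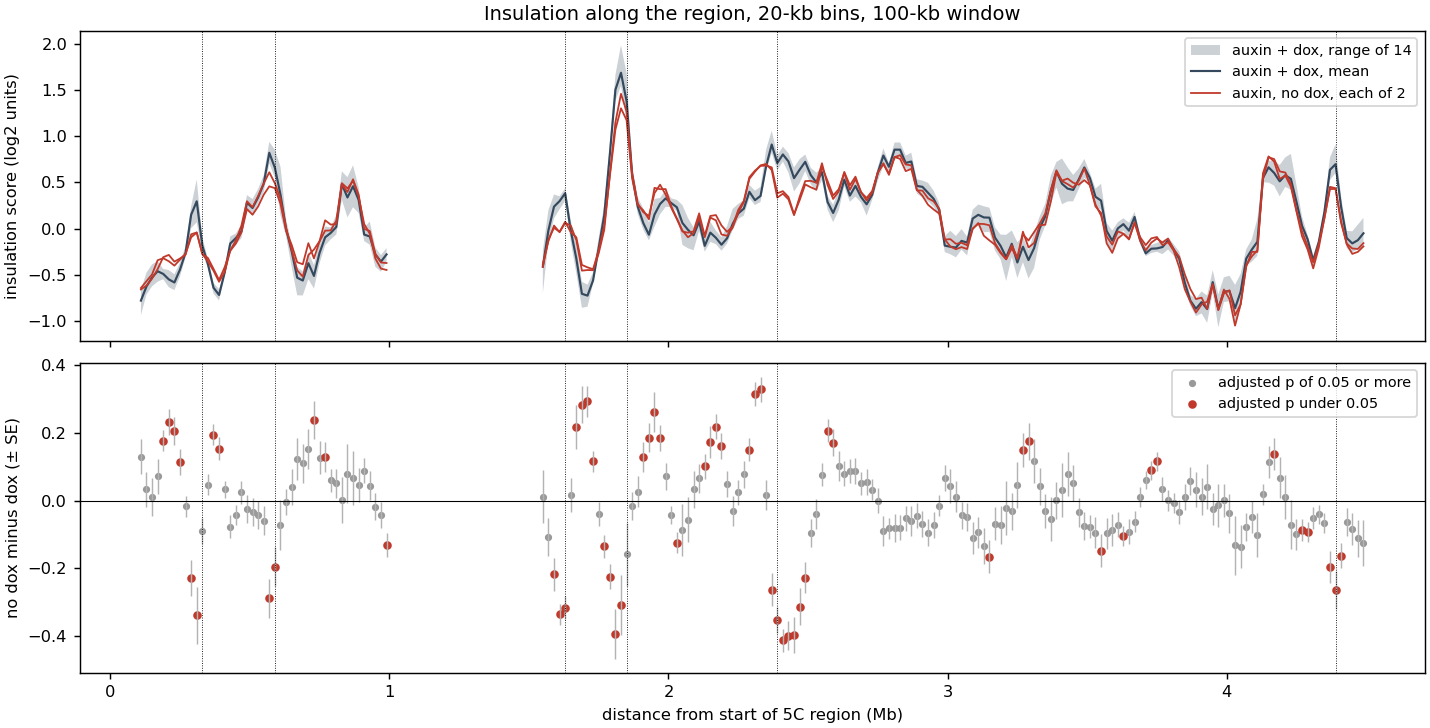
The upper panel plots the insulation score of each 20-kb bin against distance from the start of the region (Mb), with the mean and range of the 14 libraries with dox in blue-grey and each of the 2 libraries without dox in red. The lower panel gives the difference with its SE, red where the adjusted p was under 0.05, and dotted lines mark the boundaries. The deepest dip follows boundary 5, where the score fell by 0.41, and gains lie on its near side.

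All 24 listed genes were placed in the mm9 annotation, and 22 had a score in the bin of their start site. Of these, 4 had a higher score without dox and 6, in 5 bins, a lower one, where 15.5% and 14.5% of all bins did. The gains included Nhsl2 (0.23, adjusted p = 0.000117), Cdx4 and Chic1 (0.11, adjusted p = 0.00601). The losses were at Tsx (score -0.14, adjusted p = 0.00373) and Tsix (-0.22, adjusted p = 9.91e-05), at the chromatin remodeller gene Atrx (-0.093, adjusted p = 0.0265), at Magt1 and Cox7b in 1 shared bin (-0.20, adjusted p = 0.00280) and at Atp7a in the boundary 6 bin. Xist and Jpx, an RNA gene that activates Xist, share the boundary 4 bin, which did not pass. Up to 1000 kb, the median contact across a boundary was higher without dox at 18 of 21 genes, which compares with the median of 0.21 over all such pairs. Rlim had the lowest median inside its segment (-0.44 on the log2 scale, 22 pairs) with 0.46 across boundaries (64 pairs), and Uprt had the highest median across boundaries (0.51, 25 pairs).

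Each primer was given a log2 ratio of its contacts within 1 Mb that cross a boundary to those that stay in its segment. Of 876 primers, 109 had a higher ratio without dox (12.4%) and 8 a lower one (0.913%) by limma. The median difference was 0.30 over all primers, and 79.7% were above 0. This ratio also follows the decline with distance, since partners across a boundary are mostly further away. In segment 5 all 120 primers had a higher ratio without dox, 17 of them called (median 0.35), and in segments 1 and 2 the shares were 98.5% and 98.1% with 7 and 8 called. Segment 6 held 69 of the called rises and 6 of the called falls among 403 primers (66.7% above 0), and segment 7 held 2 falls and no rise among 52 (44.2% above 0).

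The 5 primers with the largest rises lie in segment 6 beyond boundary 5, between 101440932 and 101683442. The ratio of the forward primer at 101463796 was -2.88 and -2.79 without dox and -3.96 to -3.34 with dox (0.91 ± 0.16 SE, adjusted p = 0.00215), and the other 4 rose by 0.88 to 0.91 (adjusted p = 0.00728 to 0.0133). The 5 largest falls were reverse primers nearer to boundary 6, between 102429564 and 102925689, whose partners across a boundary lie in segment 7. The largest, at 102429564, had -5.70 and -5.58 without dox and -5.22 to -4.43 with dox (-0.89 ± 0.19 SE, adjusted p = 0.00612). The others fell by 0.54 to 0.69 (adjusted p = 0.0320 to 0.0431). Segment 6 thus held the largest called changes of both signs.

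The count of primers rested on the libraries chosen. With only 1 library without dox no primer passed, with 163 and 126 at an unadjusted p under 0.05, and without replicate 1 or 2 with dox 33.7% and 25.3% passed. Within the shorter primer list 160 passed, split as 81 higher and 79 lower, with a median of 0.096 against 0.30 over all 16 libraries. The excess of rises over falls was thus not seen within the shorter list, while the direction of the 10 named primers did not turn in any alternative run.

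Among 139810 primer pairs with raw counts, edgeR called 4 higher (0.00286%) and 9 lower (0.00644%) without dox. In 3 of the 9 falls the reverse fragment was the one of boundary 3 (100455323 to 100468776) that holds the plus-strand site shown above. Counts are given per 1000000 of the library size as adjusted by TMM, the normalization used with edgeR. For this fragment with the one at 100629519, which reaches into the Tsix bin, the count was 61.6 and 59.3 without dox and 132 to 239 with dox (log2 -1.52, adjusted p = 0.0228). With the fragment at 100640516, in the Tsix bin, it was 35.1 and 32 against 60.7 to 124 (-1.52, adjusted p = 0.0494). With the fragment at 100565597, which holds the minus-strand Chic1 site, it was 32.2 and 25.9 against 112 ± 29.9 (SD, n = 12, log2 -1.95, adjusted p = 0.00120). The fragment of boundary 3 thus lost counts with all 3 of these partners, 105 to 179 kb away.

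A further fall joined 2 fragments inside segment 5, at 101114518 and at 101184836 in the Rlim bin, with 3.67 and 6.01 against 8.08 to 37.1 (-2.30, adjusted p = 0.0150). Another crossed boundary 3 at 140 kb, with 2.20 and 2.31 against 7.98 to 21 (-2.67, adjusted p = 0.0126). In 3 falls the counts were 0 in both libraries without dox against means of 3.93 to 4.29 with dox, at least 11.02-fold lower when set against 3 counts per library. The last had 1 and 0 counts against 1.64 to 7.49. These 4 pairs passed the minimum of 10 counts in 2 libraries only through libraries with dox, so that any call of them had to be a fall.

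All 4 rises were over 1000 kb long. The fragments at 99400429 and 102376277, 2976 kb apart, had 87.8 and 94.6 without dox against 1.17 to 21.6 with dox (3.04, adjusted p = 2.26e-08). One reverse fragment, at 102584727, took part in 2 rises, with 15.5 and 17.5 against 0 to 3.75 (4.24) and with 33.6 and 52.5 against 1.15 to 32.4 (2.71, adjusted p = 0.00104 for both). The fourth had 16.3 and 20.8 against 0.096 to 11.1 at 2321 kb (2.98, adjusted p = 0.0228). In simulated data with 200 changed pairs, 0% were recovered at a log2 change of 1 and 12.5% at 2 with these 2 against 12 libraries. The number called was 40 without 3b, 8 without 9 or 12 with dox and 69 without 3b and 4b together. Within the shorter primer list it was 0, and 5323 of the 107173 pairs tested there (4.97%) had an unadjusted p under 0.05. DESeq2 called 282 (17 higher and 265 lower).

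Contacts between bins that both hold a FLAG–CTCF peak were compared last. Over 344 such pairs, 100 to 1000 kb apart, log2 of observed over expected was 0.35 and 0.37 without dox and 0.36 to 0.48 with dox (-0.040, adjusted p = 0.0889, exact permutation test). The pairs inside a segment and those across a boundary went in opposite directions. Inside a segment (97 pairs) the value was 0.45 and 0.50 against 0.48 to 0.79, and across a boundary (181 pairs) 0.28 and 0.33 against 0.19 to 0.28 (p = 0.0333 for each, exact permutation test), with 1 library without dox inside the range in each case. The call inside segments was lost on raw counts (p = 0.220), with median bins (adjusted p = 0.100) and at 200 to 600 kb (adjusted p = 0.117, exact permutation tests). The call across boundaries was lost with median bins (adjusted p = 0.167, exact permutation test). Its difference was 0.095 without replicate 1 without dox and 0.038 without replicate 2 without dox.

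After these values had been seen, the pairs were split by the strand of the motif letters, for 29 bins whose matches all lay on 1 strand (15 plus and 14 minus). Convergent pairs, with a plus match on the left and a minus match on the right, fell to 0.57 and 0.45 without dox from 0.65 to 1.08 with dox (25 pairs, 0.77 times, adjusted p = 0.0250 over 3 arrangements, exact permutation test). Divergent pairs, with the opposite order, rose to 0.37 and 0.26 from -0.26 to 0.18 (25 pairs, 1.23 times, adjusted p = 0.0250). Pairs in tandem had 0.27 and 0.23 against 0.13 to 0.33 (48 pairs, adjusted p = 0.367). With dox the order was convergent above tandem above divergent, with means of 0.88, 0.21 and 0.014. Without dox the means were 0.51, 0.25 and 0.32.

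Position relative to the boundaries differed between the arrangements, since 7 of the 25 convergent, 7 of the 48 tandem and 4 of the 25 divergent pairs lay inside a segment. A boundary was crossed by 7 convergent, 25 tandem and 13 divergent pairs. The remaining 11, 16 and 8 pairs had an end in a boundary bin. The part of position in the difference was not tested. The 7 convergent pairs inside a segment fell to 0.87 and 0.66 from 0.88 to 1.34 (adjusted p = 0.0333, exact permutation test). The 7 tandem pairs inside a segment had 0.034 and 0.012 against -0.076 to 0.35 (difference -0.13, p = 0.167, exact permutation test), whereas all tandem pairs differed by 0.045. Within the shorter primer list the differences were -0.36 for convergent and 0.30 for divergent pairs. Bins share peaks between pairs, so the pairs are not independent of each other.

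**Figure D5:**
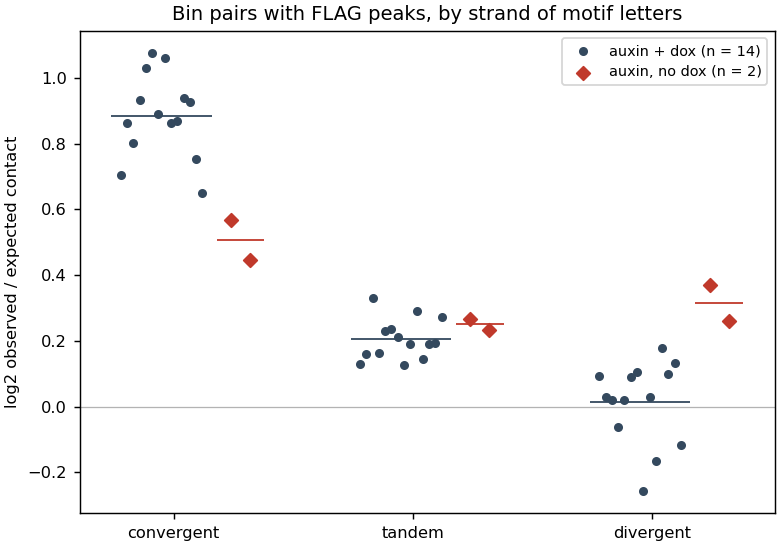
Log2 of observed over expected contact for pairs of 20-kb bins with FLAG peaks, 100 to 1000 kb apart, by the strand of the motif letters. Each point is 1 library, round for auxin and dox (n = 14) and diamond for auxin without dox (n = 2), with lines at the means. The diamonds lie below all circles for convergent pairs (0.57 and 0.45) and above all circles for divergent pairs (0.37 and 0.26).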

How the data were processed

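The labels gave the line and treatment of each 5C library. The authors mapped reads to primer pairs in mm9 and deposited unnormalized counts, 1 count for every forward primer against every reverse primer. The deposited signal of the second matrix is what the authors' asymmetric iterative correction (cooltools) made of these counts, summing to 1000000 in 14 libraries and left unscaled, as forward against reverse primers, in 2. The authors deposited FLAG–CTCF peak coordinates as 1 list, a table of positions with no score. The labels name Bowtie2 and SAMtools for mapping, with no version.

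The 454 forward and 465 reverse primers kept in all libraries were scaled to the same total and averaged in 20-kb bins, the first 2 diagonals filled for insulation. Bin pairs with a mean scaled contact of at least 0.1 were tested with limma 3.58.1 (trend, pseudocount 0.05), as were insulation bins and primers with at least 5 partners of each kind. Primer pairs with at least 10 counts in at least 2 libraries were tested with edgeR 4.0.16 (quasi-likelihood, TMM), and with DESeq2 1.42.0 as an alternative. Library values were compared by two-sided exact permutation tests (scipy 1.17.1). P-values were adjusted by Benjamini-Hochberg. Depth was 4216184 to 18501644 counts over the shared forward primers.

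Members, lists and tests were chosen with earlier results of these data known. Named were all boundaries, segments and bands, the 5 largest called changes each way of bin pairs without overlap, primers and insulation bins, and a fixed list of 24 genes. Genes beyond these, single bins beside a boundary and the primer pairs were named after their values were seen. Some genes of the list are not reported here by name. Alternatives were raw counts, median or 40-kb bins, other pseudocounts, filters and windows, and libraries left out. Replicate numbers were not used to pair libraries in the main tests. Deviations in insulation correlated with 0.051 for number 1 and -0.097 for number 2. With 2 libraries without dox these deviations mirror each other, so the correlations could not decide whether the numbers pair libraries. The limma and edgeR steps were tested on simulated data: in 17120 bin pairs, 25.5% of log2 changes of 1 and 59.5% of changes of 2 were recovered.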

Additional observations from a re-analysis of the deposited data

How the results depend on the processing

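Of 627 values of library measures under an alternative, 582 were counted as unchanged. In settings with a test this meant the same direction and call. In settings without a test it meant a difference that moved by less than the SD of the libraries with dox. A measure without a call could there also change sign. Domain contrast was -0.27 on raw counts (adjusted p = 0.0659, exact permutation test). The decay exponent differed by 0.045 with median bins and by 0.040 without 3b and 4b with dox, both passing (adjusted p = 0.0222 and 0.0293, exact permutation test), and 4 bands passed without 3b and 4b against 0. On raw counts the band from 200 to 400 kb turned to 0.036 and segment 3 to 0.039, with 40-kb bins segment 2 turned to 0.053, and at 200 to 600 kb tandem pairs turned to -0.016, none of them passing. Numbers 1 and 2 were also taken as a replicate block, although it is not known whether they pair libraries. Domain contrast was then -0.12, peak pair contacts 0.00066 and mean insulation -0.19. Under that replicate block limma called 0% of bin pairs (1311 pairs or 7.66% at an unadjusted p under 0.05) and 0% of primers (28.8% unadjusted). With the block edgeR called 0.327% of primer pairs, 79.2% of them higher without dox, whereas 4 of 13 were higher without the block. The share of bin pairs called, 0.216% over all 16 libraries, was 0% against the libraries with dox of neighbouring numbers (1774 pairs unadjusted), 0.0234% without the forward-by-reverse libraries, 0.00584% within the shorter primer list, 0.607% without 3b and 4b, 0.0292% as observed over expected, 0.108% with median bins, 2.88% with 40-kb bins and 0.0117% to 0.409% with a library left out. For insulation bins it was 30.1%, against 45.6% for neighbouring numbers, 20.9% on raw counts and 16.1% to 33.2% with a library left out. For primers it was 13.4%, against 49.1% for neighbouring numbers, 7.88% without the forward-by-reverse libraries and 0% to 33.7% with a library left out. For primer pairs it was 0.0093%, against 0.202% by DESeq2, 0.0217% without a filter, 0.016% with the authors' correction as offset, 0% within the shorter primer list, 0.0505% without 3b and 4b, 0.156% as sums over bin pairs and 0.00366% to 0.0291% with a library left out. The causes were not tested. Of 270 values of the 10 named bin pairs, 125 kept direction without passing, as did 43 of 230 for named primers.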

Other observations

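The gap between contacts inside segments and contacts across boundaries was not limited to 1 distance. At 48 distances from 60 to 1000 kb, both libraries without dox lay below all 14 with dox at 21. At 480 kb, 1 of these, the log2 ratio was 0.20 and 0.24 without dox against 0.43 to 0.72 with dox. The widest difference of means, -0.37 at 600 kb, was not among them, since values with dox ran from -0.23 to 0.61. Over 7782 bin pairs of 40 to 1000 kb, maps correlated with 0.65 between the 2 libraries without dox, with 0.50 to 0.79 among those with dox and with 0.49 to 0.70 between groups, over pairs that share libraries and bins. These correlations are a description, without a test.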
